A study of Mus musculus with 8 samples.

Results

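The genes described here, Myl2, Ccdc63, Ift81, P2rx7, Mcur1, Dtnbp1, Oscar, Cnot3 and Eps8l1, lie at the ends of 3 loci on mouse chromosomes 5, 13 and 7, and are 9 of the 21938 protein-coding genes placed in the contact matrices. The loci were chosen by a readout of these data, the weakening of the contact between their ends in B cells about to divide compared with B cells 10 h after activation. Every value of that contrast is therefore given as a description and without a test. The comparison of pre-S B cells with B cells at 3 h shares no library with it, and is the comparison that was tested.

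The study followed naive splenic B cells of male, young adult C57BL/6 mice (C57BL/6 Pep3b in the study's methods) through their first hours in culture with lipopolysaccharide (LPS, 25 µg/ml), a bacterial product that drives B cells to divide and become plasmablasts. In situ HiC, which ligates DNA ends that lie close together in fixed nuclei and counts the ligated read pairs, was performed on 4 groups of 2 libraries: 3 h, 10 h, imminent division (33 h) and pre-S (33 h). All cells were negatively isolated, labelled with CellTrace Violet (CTV) and sorted as activated (CD69+), undivided cells with the highest CTV. The pre-S cells came from C57BL/6 FUCCI mice, whose fluorescent reporters mark the cell cycle phase, and were additionally gated as mAG- mKO2hi, so that strain and gate cannot be told apart from the pre-S group. The study's methods speak of biological replicates, and the labels do not say whether the 2 libraries of a group came from separate mice, so p-values measure the spread between these libraries. HiC gives no expression, and so neither the cell type nor the activity of a gene could be checked in these data.

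The libraries held between 88703088 and 218945191 read pairs, and 70.9 to 75.1% of the autosomal pairs joined loci of the same chromosome. Read pairs with an end on chromosome X or Y made up 3.34 to 4.0% of 7 libraries and 4.93% of the second imminent division library, and all values below come from autosomes.

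Chromatin is folded into topologically associating domains (TADs), within which loci meet each other more often than loci outside. Many domains end at sites bound by CTCF, where loop extrusion by cohesin halts, and a pair of such sites facing each other often appears as a point of strong contact, the corner of the domain. On a larger scale active, gene-rich chromatin and inactive chromatin segregate into A and B compartments. These structures dissolve as chromosomes condense for mitosis. A contact was measured here as the number of read pairs between 2 bins of 50 kb, and is also given as observed over expected, the count divided by the mean count of bin pairs at the same distance on the same chromosome in the same library.

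On chromosome 5 the first end (122100475-122150060, GRCm38) held the starts of Myl2, a regulatory light chain of cardiac and slow muscle myosin, and Ccdc63, a coiled-coil protein of sperm flagella. The second end (122600066-122649678), 500 kb away, held the starts of Ift81, a subunit of the intraflagellar transport complex that builds cilia, and P2rx7, an ATP-gated ion channel of immune cells. On chromosome 13 the first end (43550260-43599928) held the start of Mcur1, a regulator of the mitochondrial calcium uniporter. The second end (44950092-44999959), 1400 kb away, lay over the body of Dtnbp1, which encodes dysbindin, a subunit of the BLOC-1 complex of lysosome-related organelles. The annotated start of Dtnbp1, at 45002147 on the minus strand, fell in the next bin (44999956-45049989). On chromosome 7 the first end (3599865-3650048) held 5 starts, among them Oscar, an immunoglobulin-like receptor of osteoclasts and myeloid cells, and Cnot3, a subunit of the CCR4-NOT deadenylase. The second end (4449779-4499955), 850 kb away, held the start of Eps8l1, a relative of the actin regulator EPS8.

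The loci on chromosomes 5 and 7 were dense in genes, and the locus on chromosome 13 was not. From end to end they held 15 starts of protein-coding genes in 11 bins, 25 in 18 bins and 4 in 29 bins. Autosomal windows of the same sizes held medians of 3, 5 and 8 starts, which placed the loci on chromosomes 5, 7 and 13 at percentiles 93.3, 94.2 and 29.6. All 9 members had their start bin left in the analysis.

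The sequences below are those stretches of 40 bases in the 6 end bins that match the core motif of CTCF, the factor at many domain corners. They are shown because pairs of such matches that face each other are known from domain corners, and a match does not show that CTCF binds there. They were read from GRCm38 on the strand of the match, and the 12 letters of the match are in capitals. Both strands were searched, and 20.5% of the 47332 autosomal bins left in held at least 1 match. The chromosome 5 locus held 2 plus-strand matches and 1 minus-strand match at its first end and 1 minus-strand match at its second end, so that the plus-strand matches face the match at the other end. The first ends on chromosomes 13 and 7 held none, and neither did the start bin of Dtnbp1. Between the ends lay 8 further matches on chromosome 5, 2 on chromosome 13 and 3 on chromosome 7.
Myl2 intron, plus strand, chr5:122104374-122104413: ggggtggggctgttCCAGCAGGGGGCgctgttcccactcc
Ccdc63 intron, plus strand, chr5:122114405-122114444: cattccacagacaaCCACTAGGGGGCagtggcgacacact
Ccdc63 intron, minus strand, chr5:122126583-122126622: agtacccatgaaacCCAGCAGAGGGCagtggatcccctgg
Gm32988 intron, minus strand, chr5:122627423-122627462: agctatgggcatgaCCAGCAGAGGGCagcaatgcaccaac
Dtnbp1 intron, minus strand, chr13:44977978-44978017: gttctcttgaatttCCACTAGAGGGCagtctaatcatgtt
Eps8l1 exon, plus strand, chr7:4479878-4479917: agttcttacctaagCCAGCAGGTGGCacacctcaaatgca

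Promoters from RefSeq (GRCm38.p6), which span 250 bases before to 50 bases after a gene start, were matched for 7 of the 9 members. They are shown for chromosome 13, whose ends made the strongest contact relative to that expected. On chromosome 7 they are shown for Oscar and Cnot3, the only members that share an end bin and were both matched. Capitals mark each CpG dinucleotide. The Mcur1 promoter held 32 and the Dtnbp1 promoter 41, whereas the median of all 32851 promoters was 7. Oscar, with 2, and Cnot3, with 28, share an end bin and differ in CpG content. The RefSeq start of Myl2 lay 7762 bases from the start used here, in the bin before the first end, so its promoter is not shown.
Mcur1 promoter, chr13:43560142-43560441, minus strand: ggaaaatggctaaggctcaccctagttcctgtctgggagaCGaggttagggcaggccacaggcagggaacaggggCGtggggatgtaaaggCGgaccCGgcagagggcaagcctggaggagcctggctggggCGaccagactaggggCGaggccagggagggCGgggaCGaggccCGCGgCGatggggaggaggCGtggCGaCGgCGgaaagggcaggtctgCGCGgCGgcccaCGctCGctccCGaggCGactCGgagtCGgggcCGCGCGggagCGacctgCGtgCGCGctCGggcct
Dtnbp1 promoter, chr13:45002047-45002346, minus strand: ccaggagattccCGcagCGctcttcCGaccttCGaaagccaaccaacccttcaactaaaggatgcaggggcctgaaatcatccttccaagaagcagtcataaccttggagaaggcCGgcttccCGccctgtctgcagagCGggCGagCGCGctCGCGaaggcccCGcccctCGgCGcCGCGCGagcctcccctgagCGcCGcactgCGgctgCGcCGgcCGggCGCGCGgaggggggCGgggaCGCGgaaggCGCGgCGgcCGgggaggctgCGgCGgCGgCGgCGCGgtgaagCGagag
Oscar promoter, chr7:3616108-3616407, minus strand: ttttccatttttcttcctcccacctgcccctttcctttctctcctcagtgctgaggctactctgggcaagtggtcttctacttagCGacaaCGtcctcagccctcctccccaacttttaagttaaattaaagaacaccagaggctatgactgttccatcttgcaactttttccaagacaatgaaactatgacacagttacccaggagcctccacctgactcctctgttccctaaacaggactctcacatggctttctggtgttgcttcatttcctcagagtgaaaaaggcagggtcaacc
Cnot3 promoter, chr7:3645019-3645318, plus strand: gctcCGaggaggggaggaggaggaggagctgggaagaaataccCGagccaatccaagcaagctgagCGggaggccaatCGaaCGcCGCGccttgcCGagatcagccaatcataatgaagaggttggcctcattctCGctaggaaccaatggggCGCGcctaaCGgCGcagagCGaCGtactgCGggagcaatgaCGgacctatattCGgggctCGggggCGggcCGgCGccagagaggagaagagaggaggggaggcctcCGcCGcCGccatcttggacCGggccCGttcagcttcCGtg

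The Mcur1 to Dtnbp1 contact was among the strongest of its length in the genome. Between the end bins, 79 and 88 read pairs were counted at 3 h, 96 and 128 at 10 h, 66 and 69 in imminent division and 65 and 60 in pre-S. The observed over expected contact was 19.6 and 11.3 at 3 h, 16.7 and 16.7 at 10 h, 6.76 and 6.07 in imminent division and 10.4 and 11.1 in pre-S. Both imminent division libraries were therefore below all others, and the 3 h libraries were the most spread. The second 3 h library, at 11.3, was close to pre-S, and scaled to depth or set against the surrounding bin pairs it lay below both pre-S libraries. By counts scaled to the depth of each library, only 1 of the 46289 autosomal bin pairs 1400 kb apart exceeded it at 3 h and 1 at 10 h, against 24 in imminent division and 2 in pre-S. The contact also stood above its neighbours. It was 2.39 ± 0.89 (SD, n = 2) times the mean of the surrounding square of 5 by 5 bin pairs at 3 h, 2.26 ± 0.011 (SD, n = 2) at 10 h, 1.64 ± 0.25 (SD, n = 2) in imminent division and 2.23 ± 0.14 (SD, n = 2) in pre-S. The contact of the Mcur1 bin with the next bin, which holds the Dtnbp1 start just beyond the border, was 4.49 ± 0.62 (SD, n = 2) times the expected at 3 h, 8.25 ± 0.36 (SD, n = 2) at 10 h, 3.63 ± 1.58 (SD, n = 2) in imminent division and 4.14 ± 0.25 (SD, n = 2) in pre-S, lower in each group than that of the end bins. It was 0.745 ± 0.15 (SD, n = 2) times its surroundings at 3 h, 1.2 ± 0.11 (SD, n = 2) at 10 h, 0.995 ± 0.41 (SD, n = 2) in imminent division and 0.90 ± 0.069 (SD, n = 2) in pre-S.

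The Myl2-Ccdc63 to Ift81-P2rx7 contact showed the same order of groups. At 3 h the ends shared 70 and 101 read pairs, against 104 and 149 at 10 h, 63 and 84 in imminent division and 69 and 64 in pre-S. As observed over expected, they were 6.40 and 4.77 at 3 h, 6.45 and 7.17 at 10 h, 2.08 and 2.35 in imminent division and 4.22 and 4.48 in pre-S. The 2 imminent division libraries again lay below all 6 others. Of 46745 autosomal pairs 500 kb apart, 202 were stronger at 3 h, 86 at 10 h, 2532 in imminent division and 313 in pre-S. Relative to the surrounding bin pairs it was 2.07 ± 0.18 (SD, n = 2) at 3 h and 1.24 ± 0.12 (SD, n = 2) in imminent division, the least of the 3 loci.

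The Oscar-Cnot3 to Eps8l1 contact was highest at 10 h. At 3 h it was counted 38 and 77 times, against 86 and 111 at 10 h, 57 and 64 in imminent division and 66 and 49 in pre-S. Observed over expected was 6.28 and 6.79 at 3 h, 9.84 and 9.62 at 10 h, 3.71 and 3.51 in imminent division and 7.37 and 6.24 in pre-S. Both 10 h libraries lay above all others and both imminent division libraries below, while 3 h and pre-S overlapped. The pairs stronger than it among 46555 autosomal pairs 850 kb apart numbered 120 at 3 h, 26 at 10 h, 521 in imminent division and 79 in pre-S.

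**Figure D1:**
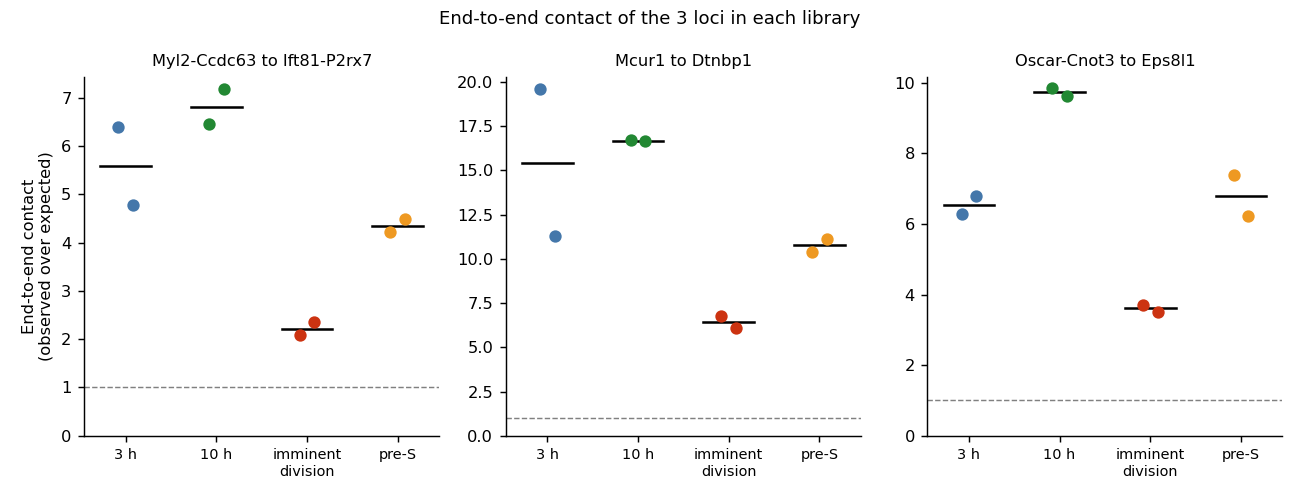
End-to-end contact (y axis, observed over expected, no unit) of the 3 loci in the 4 groups (x axis), with 1 point per library, the group mean as a bar and the expected level of 1 as a dashed line. The imminent division libraries are the lowest in all 3 loci, at 2.08 to 6.76, and their weaker contact than at 10 h chose the loci.

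In the fit of all bin pairs with edgeR, the end-to-end contacts in imminent division were 0.353, 0.363 and 0.361 of those at 10 h on chromosomes 5, 13 and 7 (log2 −1.5, −1.46 and −1.47). These values chose the loci. The median of all tested pairs of the same separation was 0.10, −0.24 and −0.03 on the log2 scale. The tested comparison, pre-S versus 3 h, called none of the 3. The log2 change was −0.22 on chromosome 5 (SE 0.18, 95% confidence interval −0.57 to 0.13, edgeR adjusted p = 0.683). It was −0.29 on chromosome 13 (SE 0.18, interval −0.65 to 0.07, edgeR adjusted p = 0.560) and 0.13 on chromosome 7 (SE 0.20, interval −0.27 to 0.52, edgeR adjusted p = 0.863). The interval on chromosome 13 reaches from a fall of 0.65 to a small rise, and at this depth neither could be told from no change. The direction there turned, to 0.05, without the first 3 h library. On chromosome 5 it turned to 0.20 with bin coverage in the offsets, and on chromosome 7 to −0.021 in 100 kb bins.

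Contrasts that share the 10 h or imminent division libraries with the choice of the loci are values only. From 3 h to 10 h the end-to-end contacts differed by 0.42, 0.27 and 0.63 on the log2 scale on chromosomes 5, 13 and 7. Pre-S lay between 10 h and imminent division in all 3 loci, at −0.64, −0.56 and −0.50 relative to 10 h, and imminent division stood at −0.86, −0.90 and −0.97 relative to pre-S. In a population of cells, a contact made in fewer cells and a contact made less often in every cell cannot be told apart.

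**Figure D2:**
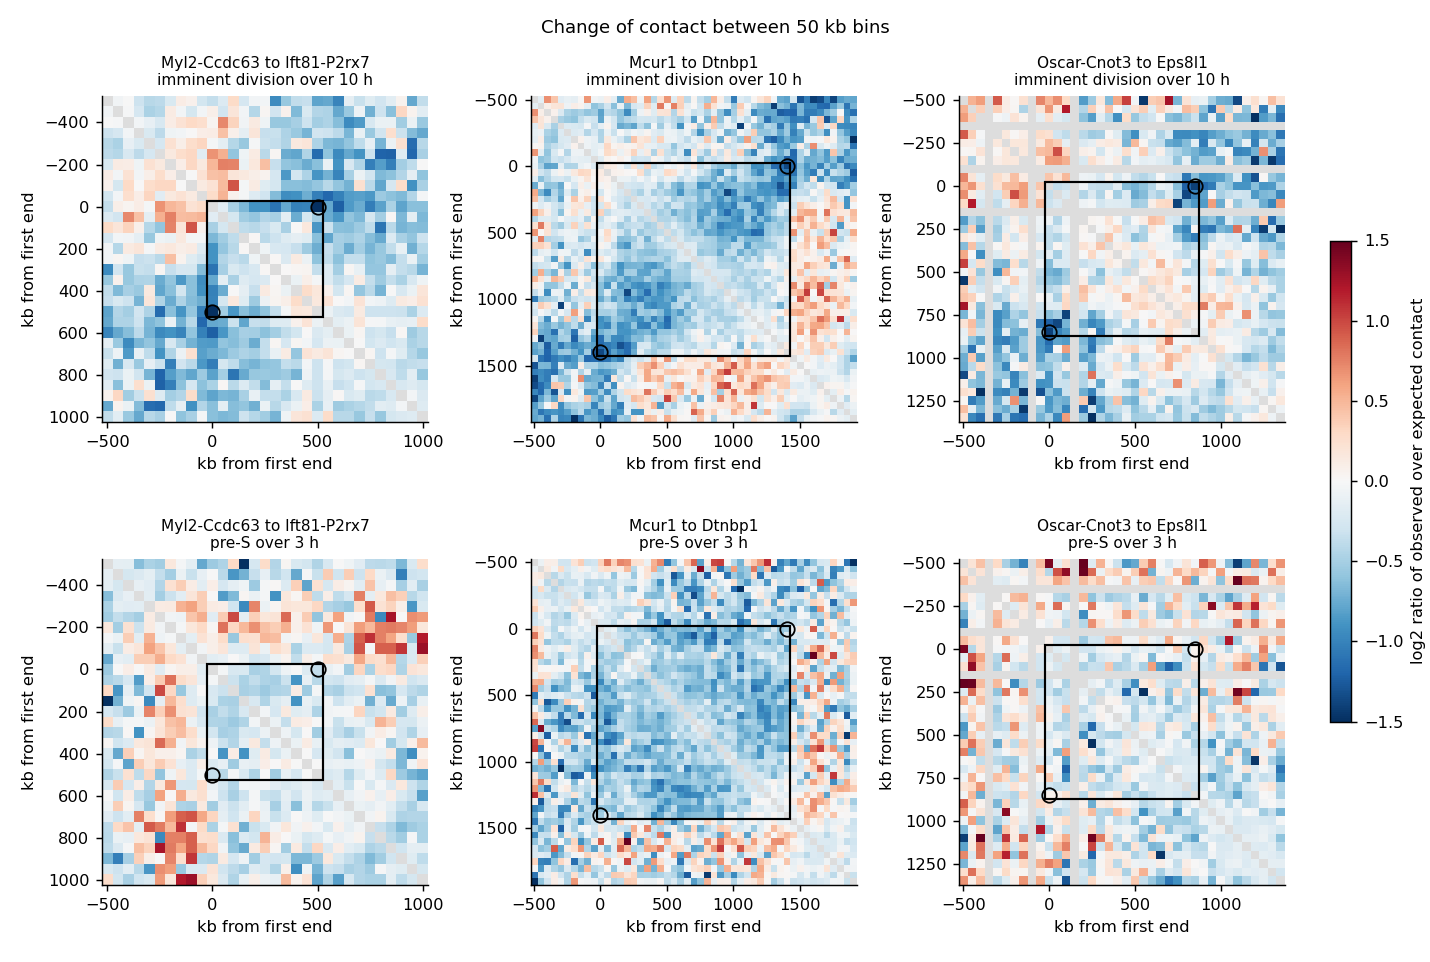
Change of contact between 50 kb bins around the 3 loci (columns), as the log2 ratio of group means of observed over expected contact with 0.1 added, for imminent division over 10 h (top) and pre-S over 3 h (bottom), with both axes in kb from the first end. The square encloses the locus and the circles mark the end-to-end pair. This pair is blue (weaker) at the top in all 3 loci, in the contrast that chose them. Its fitted log2 change there was −1.5, −1.46 and −1.47.

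Among the bin pairs from end to end, 81 of 406 on chromosome 13 were weaker in pre-S than at 3 h. Of 594 bin pairs tested within the 3 loci, 86 were weaker in pre-S and 0 stronger (edgeR, adjusted p under 0.05), and 551 had a negative change. Over all 1458926 bin pairs tested, 0.34% were weaker and 0.339% stronger, and the median log2 change was 0.0046. The share of negative changes over all pairs was not computed. Of the pairs 50 to 1400 kb apart 0.421% were weaker. These background pairs were not matched to those of the loci for read count, on which the power to call a change depends. Chromosome 13 held 81 of the 86, and the median log2 change of its 406 pairs was −0.48. Pairs more than 250 kb apart were called in 61 of 276 cases (median −0.55) and pairs at shorter distances in 20 of 130 (median −0.34). Neighbouring bin pairs share bins and reads of the same domain, so these counts are not of independent events.

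The weaker contacts of chromosome 13 lay at bins with and without gene starts. Of the 81 pairs, 67 had no gene start in either bin, as had 300 of the 406 pairs tested, and 41 lay between the bin 300 kb from the first end and the bin of Jarid2, a stretch that held 153 of the tested pairs. The Rnf182 bin took part in 6, the Jarid2 bin in 4, the Cd83 bin in 3 and the Mcur1 bin in 2, and the second end in 1, where each end bin had 28 tested pairs. The pair with the smallest p joined bins 300 and 1050 kb from the first end, neither with a gene start. Its read pairs numbered 68 and 170 at 3 h, 105 and 107 at 10 h, 116 and 144 in imminent division and 55 and 47 in pre-S. Its log2 change was −1.05 (SE 0.18, edgeR adjusted p = 2.7e-05). The called changes ran from −1.27 to −0.46.

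This count depended on single libraries and on the scaling. The 86 pairs of the 3 loci became fewer when any 3 h or pre-S library was left out, which leaves 1 in its group. The number of weaker pairs over all autosomes fell as well in each of these fits. With the coverage of each bin in the offsets the 86 became 21, or 3.54% of the pairs in the loci, where 1.37% of all pairs were weaker. Interchromosomal read pairs, which are not part of these contacts, also differed. They were lower in pre-S than at 3 h in 28 of the 29 bins on chromosome 13 (median log2 −0.16). The same held for 11 of 11 on chromosome 5 (−0.20) and 13 of 17 on chromosome 7 (−0.10). Over all bins the median was −0.01 and the SD 0.28, and the share of bins that were lower was not computed. Whether coverage accounts for the weaker pairs was not tested. The 3310 other bin pairs of the 3 windows, which reach up to 1 Mb beyond the ends and have at least 1 bin outside them, held 13 weaker and 1 stronger.

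**Figure D3:**
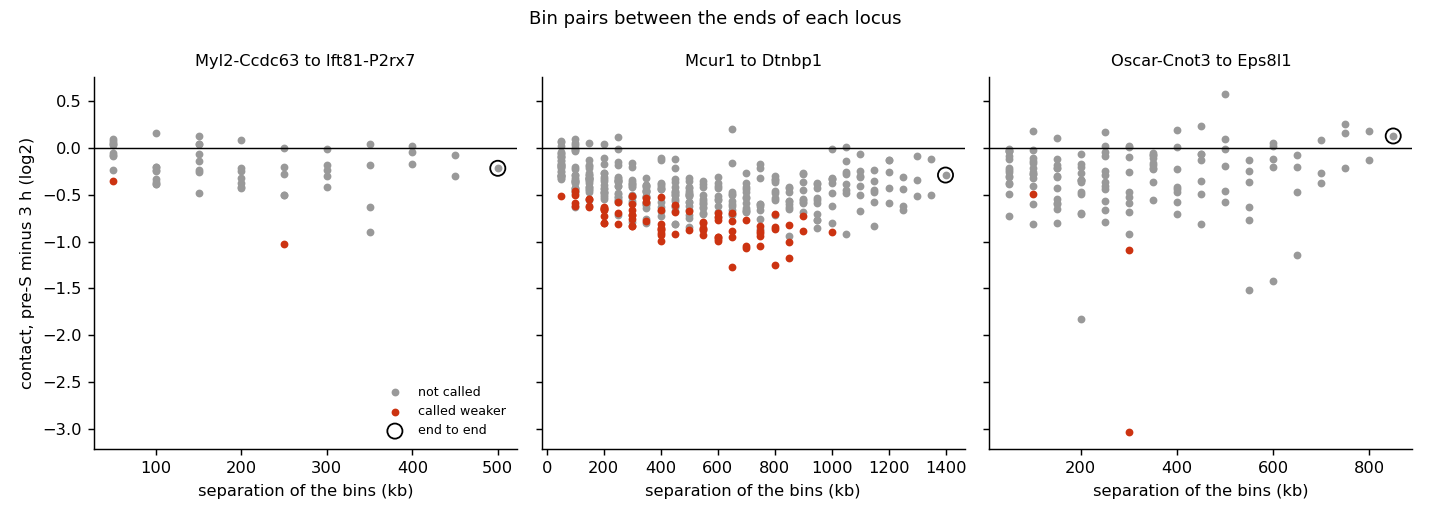
Log2 change of contact in pre-S versus 3 h (y axis) against the separation of the bins in kb (x axis) for every tested bin pair between the ends of each locus. Red points were called weaker (2, 81 and 3 pairs), grey points were not called, and the circle marks the end-to-end pair, at −0.22, −0.29 and 0.13. The lowest red point on chromosome 7 is the Gm14548 pair, which held 1 read pair in each pre-S library.

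On chromosomes 5 and 7 few single pairs were called (2 and 3), although most changes had the same sign. The medians were −0.22 over 55 pairs and −0.26 over 133 pairs, with 42 and 115 negative. The other pairs of their windows moved the same way, with medians of −0.15 (742 of 1130 negative) and −0.19 (506 of 717), against −0.14 (914 of 1463) around the chromosome 13 locus. The called pair with the smallest p on chromosome 5 joined the bin of Hvcn1, a voltage-gated proton channel of B cells and phagocytes, to the next bin, which holds the starts of Tctn1, a protein of the ciliary transition zone, and Pptc7, a mitochondrial phosphatase. Its read pairs numbered 334 and 544 at 3 h, 394 and 481 at 10 h, 410 and 544 in imminent division and 300 and 233 in pre-S, a log2 change of −0.36 (SE 0.09, edgeR adjusted p = 0.032) from 3 h to pre-S. The other joined Tctn1 and Pptc7 to Atp2a2, the calcium pump of the sarcoplasmic and endoplasmic reticulum (−1.02, edgeR adjusted p = 0.033), named here after its value was seen. Neither chromosome 5 nor chromosome 7 held a called pair when the first 3 h library or either pre-S library was left out or with the 2-fold abundance filter, and chromosome 5 held 0 with bin coverage in the offsets, in 100 kb bins and with offsets set within each distance class (an alternative added after the data were seen).

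On chromosome 7 the pair with the smallest p joined a bin without a gene start, 400 kb from the first end, to that of Ttyh1 and Leng8. Its read pairs numbered 160 and 298 at 3 h, 175 and 245 at 10 h, 253 and 325 in imminent division and 138 and 131 in pre-S (log2 −0.49, SE 0.12, edgeR adjusted p = 0.0195). The remaining pairs were named after their values were seen. Gm15448 and Pira2 with Ttyh1 and Leng8 changed by −1.09 (edgeR adjusted p = 0.0486). Gm14548 with Leng9 and Cdc42ep5 held 5, 12, 8, 11, 6, 16, 1 and 1 read pairs in the 8 libraries, in a bin at 0.25 times the median coverage, within the Pira and Lilra receptor genes whose near-identical copies can share reads. Of the 153 possible pairs of this locus 133 were tested, since 1 of its bins was left out and 3 further pairs did not pass the filters.

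In imminent division versus 10 h, the contrast that chose the ends, the pairs from end to end had median log2 changes of −0.21, −0.31 and −0.18 in the loci of chromosomes 5, 13 and 7, beside −0.34, −0.10 and −0.32 for the other pairs of their windows. On chromosome 13 pairs more than 250 kb apart had a median of −0.52 and closer pairs one of −0.13. As observed over expected, the chromosome 13 pairs more than 250 kb apart stood at 4.65 and 4.66 at 3 h, 4.38 and 4.31 at 10 h, 2.74 and 2.99 in imminent division and 3.06 and 3.05 in pre-S. Both groups at 33 h thus lay below both early groups with no overlap. The contacts between the gene-start bins of chromosome 5 ran the same way, with 2.43 and 2.27 at 3 h, 2.43 and 2.35 at 10 h, 1.79 and 1.84 in imminent division and 1.85 and 1.89 in pre-S. So did the chromosome 7 pairs over 250 kb apart, with 2.15 and 2.04, 2.18 and 2.21, 1.63 and 1.63, and 1.81 and 1.70 in the same order. These subsets of pairs differ between the loci. Over the chromosome 5 pairs of every distance the values were 2.18 and 2.07, 2.2 and 2.13, 1.78 and 1.79, and 1.79 and 1.79, and the groups at 33 h again lay below the early ones. The chromosome 7 pairs at 250 kb or less did overlap, with 1.08 and 1.07 at 3 h, 1.03 and 1.03 at 10 h, 1.01 and 1.04 in imminent division and 0.952 and 0.925 in pre-S. Some contacts with the flanks, the parts of the windows beyond the ends, were also lower at 33 h without overlap. For the chromosome 5 locus and its downstream flank, group means were 2.13, 2.2, 1.69 and 1.76 in the same order. Nor was there overlap with the downstream flank on chromosome 7 or the upstream flank on chromosome 13. With the opposite flanks the groups overlapped. The share of all regions without overlap was not computed, and imminent division versus 10 h chose the loci.

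The genes between the ends also contacted the end bins. On chromosome 5 the bin with the strongest contact at 3 h held the starts of Rad9b, a relative of the checkpoint protein RAD9, Vps29, a retromer subunit, Gpn3, Fam216a and Arpc3, a subunit of the actin-nucleating Arp2/3 complex. Its contact with the Myl2-Ccdc63 end was 7.16 and 5.54 times the expected at 3 h, 6.30 and 6.38 at 10 h, 3.07 and 3.64 in imminent division and 4.21 and 5.0 in pre-S. Next came Anapc7, a subunit of the anaphase-promoting complex, whose contact with the Ift81-P2rx7 end was 4.84 and 4.56 at 3 h, 4.07 and 3.82 at 10 h, 2.94 and 3.19 in imminent division and 3.05 and 3.42 in pre-S. Tctn1 and Pptc7, Atp2a2 and Ppp1cc, a catalytic subunit of protein phosphatase 1, followed at lower levels, and Hvcn1 was the last of the 6 gene-start bins there by the sum over both ends, at 2.35 ± 0.035 (SD, n = 2) with the first end at 3 h and 1.96 ± 0.27 (SD, n = 2) in pre-S.

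On chromosome 13 the 3 genes between the ends were Rnf182, a ubiquitin ligase, Cd83, a surface marker of activated B cells and mature dendritic cells, and Jarid2, a partner of the Polycomb complex PRC2. Rnf182, next to Mcur1, contacted the Dtnbp1 end at 10.2 and 11.3 times the expected at 3 h, 14.1 and 15.1 at 10 h, 5.69 and 7.83 in imminent division and 10.5 and 7.90 in pre-S. Cd83 contacted the same end at 9.82 and 6.10 at 3 h, 10.1 and 10.2 at 10 h, 4.37 and 4.74 in imminent division and 5.27 and 6.64 in pre-S. Jarid2 contacted the Mcur1 end at 7.18 and 5.40 at 3 h, 6.91 and 6.07 at 10 h, 3.06 and 3.69 in imminent division and 4.67 and 4.48 in pre-S. In these 3 contacts both imminent division libraries were below both 10 h libraries, in the contrast that chose the loci. Counted over the 3 genes and both ends, this held for 4 of 6 contacts. The libraries overlapped for Rnf182 with the Mcur1 end and for Jarid2 with the Dtnbp1 end. The share of all contacts of gene-start bins without such overlap was not computed. In the contacts listed here, 3 h and pre-S overlapped for Rnf182 and Cd83.

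On chromosome 7 the bin of Rdh13, a mitochondrial retinol dehydrogenase, lies next to Eps8l1 and contacted the Oscar-Cnot3 end at 8.30 and 6.02 times the expected at 3 h, 8.66 and 9.27 at 10 h, 3.26 and 4.35 in imminent division and 7.27 and 4.39 in pre-S. The bin of Leng1, Tmc4, Tsen34, a subunit of the tRNA splicing endonuclease, and Mboat7, a phospholipid acyltransferase, lies next to Cnot3 and contacted the Eps8l1 end at 5.79 and 4.54 at 3 h, 7.37 and 6.13 at 10 h, 3.44 and 3.27 in imminent division and 5.69 and 5.11 in pre-S. Ttyh1 and Leng8, and the leukocyte receptor genes Lilra6 and Lair1, were the other bins of the 5 strongest at 3 h. The lower receptor gene bins, with Pirb, Pira2 and Lilra5, had contacts of 0.902 to 2.33 with either end at 3 h.

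Counted over all gene-start bins between the ends and both ends, the mean contact was lower in imminent division than at 10 h in 11 of 12 on chromosome 5, 5 of 6 on chromosome 13 and 21 of 24 on chromosome 7. It was lower in pre-S than at 3 h in 12 of 12, 5 of 6 and 20 of 24, with both pre-S libraries below both 3 h libraries in 7, 3 and 12 of these. Among all autosomal contacts of a gene-start bin 50 to 1400 kb apart, both pre-S libraries lay below both 3 h libraries in 22.2%. The share of all such contacts with a lower mean was not computed for either comparison, and imminent division versus 10 h chose the loci. The exceptions to the first count on chromosomes 5 and 13 were Atp2a2 with the second end, and Rnf182 with its neighbour Mcur1, both chosen after their values were seen.

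**Figure D4:**
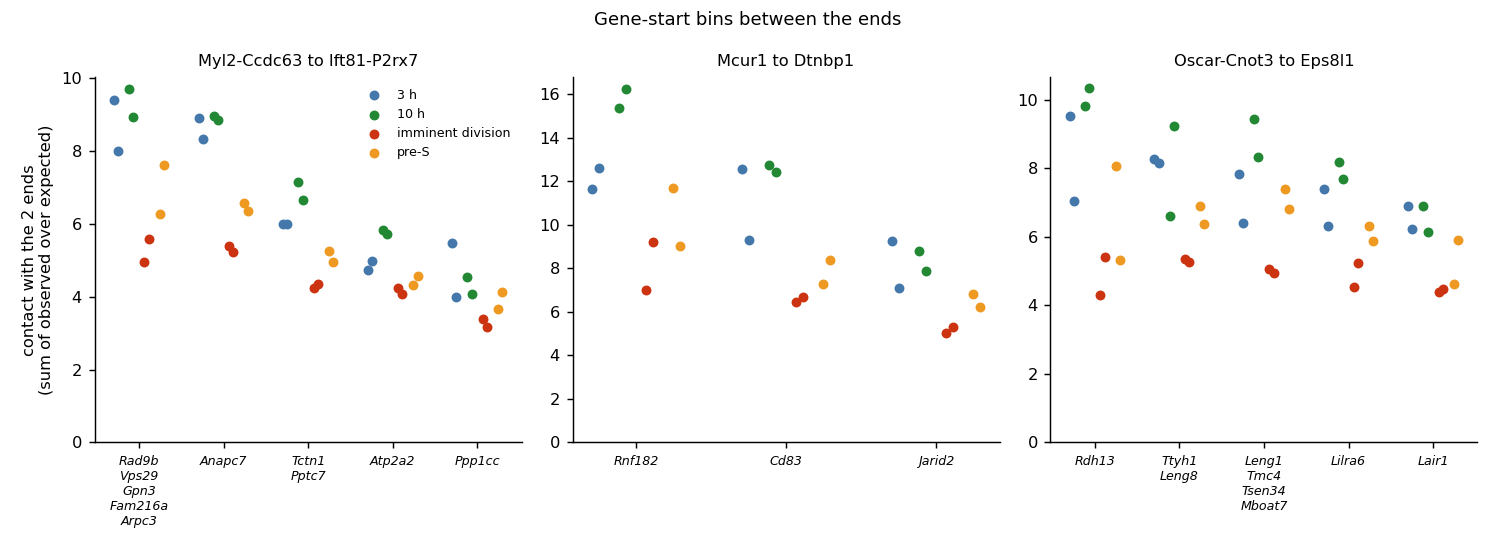
Contact of the gene-start bins between the ends with both end bins (y axis, sum of observed over expected, no unit), in 1 point per library and group, for up to 5 bins per locus with the highest sum at 3 h (x axis, named by the genes that start in them). The imminent division points lie below the 10 h points in all 13 bins, in the contrast that chose the loci. The share of all gene-start bins that do so was not computed.

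Interactivity was the sum of a gene-start bin's read pairs on its own chromosome, over the bin pairs that stood out for their distance. A pair counted if its mean log2 abundance exceeded the curve fitted to distance by over 2 times the mean absolute residual. It was lower in pre-S than at 3 h in 5 of 23 bins between or at the ends and higher in 0 (edgeR, adjusted p under 0.05). Of all 12492 such bins, 18.0% were lower. The share is near that background in this setting. The 5 were Hvcn1 (log2 −0.24), Tctn1 and Pptc7 (−0.18), Jarid2 (−0.15), Ttyh1 and Leng8 (−0.14) and Ppp1cc (−0.11), with adjusted p of at most 0.044. Fewer were called when the second 3 h library or either pre-S library was left out, and the share of all bins that were lower fell as well. The 5 became 9 with TMM factors (20.7% of all bins) and 18 of 26 when every contact on the chromosome was counted (23.8% of all bins). The change was negative in 22 of the 23, with a median of −0.08. Over the 52 gene-start bins of the flanks the median was −0.01, with 35 negative, 3 called lower and 2 called higher. The share of negative changes over all gene-start bins was not computed. No member's start bin was called: Myl2 and Ccdc63 changed by −0.0049 (SE 0.043), Ift81 and P2rx7 by −0.05 (SE 0.04), Mcur1 by −0.04 (SE 0.04), Oscar and Cnot3 by 0.00077 (SE 0.042) and Eps8l1 by −0.03 (SE 0.05). The start bin of Dtnbp1, just beyond its end and counted with the flanks, changed by −0.0087 (SE 0.049).

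By function, and counting bins between or at the ends, the immune cell genes had 1 of 7 tested bins lower in interactivity, that of Hvcn1, with Cd83, Lair1, Lilra5, Lilra6, Oscar and P2rx7 not called and Pirb and Pira2 not tested. The cell cycle and chromatin genes had 2 of 5 lower (Ppp1cc and Jarid2, with Anapc7, Rad9b and Tfpt not called), the transport and cytoskeleton genes 1 of 5 (Tctn1, with Arpc3 and Vps29, Cdc42ep5, Ift81 and Eps8l1 not called). The RNA and protein synthesis genes (Cnot3 and Prpf31, Tsen34) and the striated muscle genes (Myl2, Atp2a2) had 0 of 2 each. Rps9, which starts in the bin of Pirb, was not tested. Of all 12492 gene-start bins 18.0% were lower, and no test was run on the lists. None was higher, and the bins of list genes in the flanks, that of Dtnbp1 among them, were not called. The median changes of these lists, from −0.09 to −0.02, lay beside −0.08 over all 23 bins.

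The insulation score, the contact across a bin between the 500 kb on either side, as log2 relative to the chromosome mean, gave the shape of the domains. On chromosome 13 the domain was strong. The score rose to 2.24 and 2.28 in the 3 h libraries at its middle, 800 kb from the first end, and stood there at 2.15 and 2.11 at 10 h, 1.46 and 1.53 in imminent division and 1.63 and 1.63 in pre-S. The second end, over Dtnbp1, was a local minimum of −0.51 at 3 h, −0.41 at 10 h, −0.21 in imminent division and −0.45 in pre-S. The first end, at Mcur1, was not itself a local minimum, with 0.55 at 3 h and a slightly lower 0.54 in the bin just before it. The nearest strong minimum lay 450 kb before it, at −1.91 at 3 h, −1.72 at 10 h, −1.35 in imminent division and −1.67 in pre-S. Both pre-S libraries were below both 3 h libraries in 27 of the 29 bins from end to end, where 31.9% of all autosomal bins with a score did so. The median over the bins was 1.68 at 3 h, 1.52 at 10 h, 1.11 in imminent division and 1.07 in pre-S.

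The other loci had lower median scores from end to end. On chromosome 5 the median score from end to end was 1.19 at 3 h, 1.3 at 10 h, 0.75 in imminent division and 1.02 in pre-S. The local minimum, 0.13 at 3 h, lay in the bin of Cux2 just before Myl2, and the Ift81-P2rx7 end, at 1.21, was inside a region of high scores. On chromosome 7 the medians were 0.58 at 3 h, 0.62 at 10 h, 0.27 in imminent division and 0.42 in pre-S. The Oscar-Cnot3 end stood at −0.56 at 3 h and −0.55 in pre-S, and a shallow minimum lay just after Eps8l1, at 0.35 and 0.09. Both pre-S libraries fell below both 3 h libraries in 8 of 11 bins on chromosome 5 and 16 of 18 on chromosome 7, beside the same 31.9% of all bins. Adjacent scores are built from overlapping contacts, so these bins are not independent, and no test was run on the score.

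**Figure D5:**
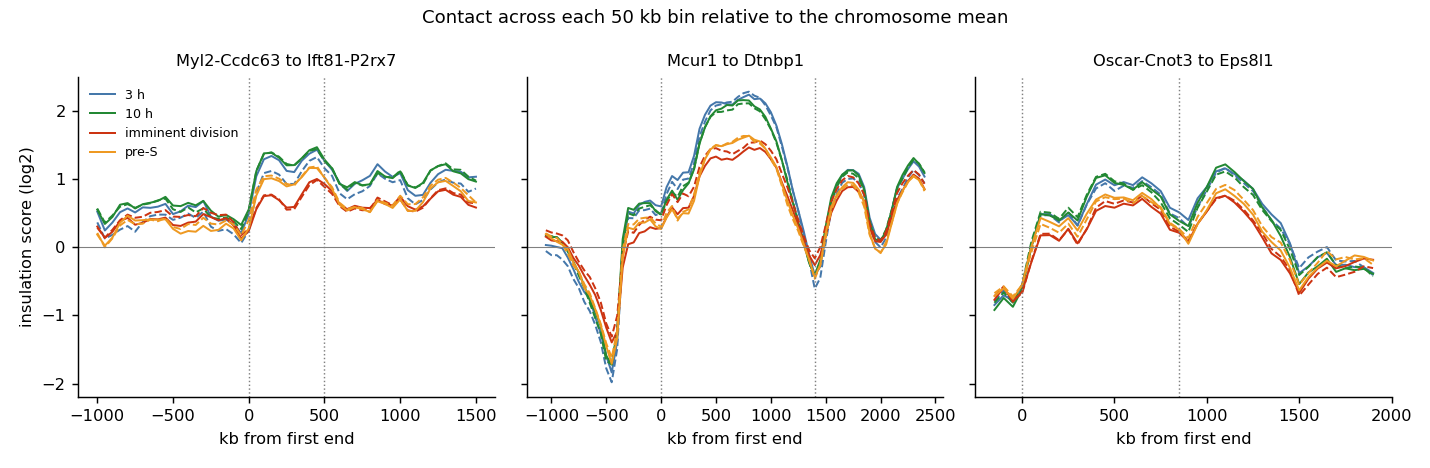
Insulation score (y axis, log2 relative to the chromosome mean) along the windows of the 3 loci (x axis, kb from the first end, with the ends as dotted lines), in 1 line per library, dashed for the second of each group. On chromosome 13 the 4 early lines reach 2.11 to 2.28 at 800 kb and the 4 lines at 33 h 1.46 to 1.63.

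The strength of domain boundaries was tested with the ratio of contacts with the 1 Mb upstream to those with the 1 Mb downstream of a 100 kb region. In pre-S versus 3 h, 14 of the 83 regions of the windows changed (edgeR glmTreat, adjusted p under 0.05), against 12.4% of all regions. Of the 83, 12 became less far from an even ratio, against 6.49% of all regions. On chromosome 13, 6 of the 15 regions from end to end changed and all 6 became more even, while 0 of 6 and 0 of 8 changed inside the loci of chromosomes 5 and 7. The 6 lay within 250 kb of an end. The region of the Dtnbp1 start, just beyond the second end, was not called (edgeR glmTreat adjusted p = 0.941). Its fitted log2 ratio was −1.62 at 3 h and −1.56 in pre-S. At the region of the second end, 1 of the 6, the log2 ratio was 1.63 and 1.73 at 3 h and 1.17 and 1.32 at 10 h. It was 0.98 and 0.98 there in imminent division and 1.23 and 1.19 in pre-S. At the Jarid2 region the log2 ratio was 1.56 and 1.54 at 3 h, 1.5 and 1.45 at 10 h, 0.99 and 1.06 in imminent division and 1.02 and 1.03 in pre-S. At the Rnf182 region it was −1.04 and −1.0 at 3 h, −0.89 and −0.90 at 10 h, −0.66 and −0.79 in imminent division and −0.61 and −0.64 in pre-S. At the Mcur1 region it was −0.49 and −0.50 at 3 h, −0.14 and −0.20 at 10 h, −0.36 and −0.37 in imminent division and −0.19 and −0.24 in pre-S. There the 10 h libraries were thus already closer to even than those in imminent division. The count over the windows was 9 with 500 kb on each side, where 7.71% of all regions changed. It also fell without the second 3 h library, as did the count over all regions.

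All 3 loci lay in the A compartment, by the first principal component of the contact correlations in bins of 100 kb, signed so that gene-rich bins are positive and scaled to a mean square of 1 over a chromosome. Every bin from end to end was positive at 3 h. On chromosome 13 the median component rose from 1.095 and 0.948 in the 3 h libraries to 1.2 and 1.21 in pre-S, beside 1.04 and 1.04 at 10 h and 1.17 and 1.16 in imminent division, and 12 of its 15 bins were higher (limma, adjusted p under 0.05). On chromosome 5 it was 1.17 and 1.11 at 3 h, 1.17 and 1.15 at 10 h, 1.21 and 1.22 in imminent division and 1.22 and 1.27 in pre-S, and 4 of 6 bins were higher. On chromosome 7 it was 0.79 and 0.88 at 3 h, 0.81 and 0.78 at 10 h, 0.85 and 0.82 in imminent division and 0.73 and 0.70 in pre-S, and 5 of 8 bins were lower. Over all bins 15.0% were higher and 16.6% lower. In the whole windows 39 of 84 bins were higher, all on chromosomes 5 and 13, and 10 lower, all on chromosome 7, and the 49 changed bins became 25 without the second pre-S library, where 21.4% of all bins changed, against 31.6%. The bin of Ncr1, a receptor of natural killer cells, and Gp6, a platelet collagen receptor, was the only one from end to end whose group mean changed sign, from 0.087 and 0.225 at 3 h to −0.044 and 0.019 in pre-S, whereas imminent division stood at 0.302 and 0.22.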

How the data were processed

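In situ HiC was analysed in 8 libraries, 2 for each of 4 groups. The values are raw counts of read pairs between MboI-restricted 50 kb bins of mm10 (GRCm38), deposited by the authors, who trimmed and mapped the reads with the diffHic pipeline (cutadapt, bowtie2), marked duplicates with Picard and removed dangling ends. The excluded-region list that the authors applied later was not used here. Depth was 88703088 to 218945191 read pairs per library.

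Bins were rebuilt from MboI fragment midpoints, and 47332 of 48088 autosomal bins were kept. Bin pairs with at least 10 reads summed over the libraries and an abundance over 4-fold above the interchromosomal background of 1 Mb pairs were fitted in all 8 libraries with edgeR 4.0.16 (quasi-likelihood, trended, robust, prior count 2) with loess offsets, separately for pairs under 1.5 Mb apart, in R 4.3.3. The Benjamini-Hochberg threshold was 0.05 over all pairs. Boundaries were tested with glmTreat at a fold change of 1.1, and compartments with limma 3.58.1. Gene-start bins needed a count of 200 for interactivity. Genes were GENCODE protein-coding genes. Intervals cover the spread between libraries.

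The members, the lists and the 3 loci were chosen with earlier results of these data known. Named were the 9 members, genes of the lists between the ends, the genes of the 5 start bins per locus with the highest contact with both ends at 3 h, the end-to-end pairs and the pair with the smallest p of each locus. Same-numbered libraries did not deviate together (correlation −0.26 between 3 h and pre-S, 0.097 between 3 h and 10 h), so the numbers were not taken as pairs.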

Additional observations from a re-analysis of the deposited data

How the results depend on the processing

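For pre-S versus 3 h, no end-to-end contact passed the threshold under any of 17 alternatives, and the lowest edgeR adjusted p were 0.0886 on chromosome 13, 0.396 on chromosome 5 and 0.332 on chromosome 7. The sign turned on chromosome 13 without the first 3 h library (0.048, over leave-outs of −0.76 to 0.048), on chromosome 5 with bin coverage in the offsets (0.20, leave-outs −0.49 to −0.05) and on chromosome 7 in 100 kb bins (−0.021, leave-outs 0.02 to 0.22). The 86 weaker pairs (0.34% of all pairs weaker) became 208 with TMM factors (1.1%) and 38 with the 2-fold abundance filter (0.028%). They became 21 with bin coverage in the offsets (1.37%) and 52 when offsets were set within each distance class (0.27%). The last alternative was added after the data were seen. In these settings 0 pairs of the loci were stronger. When 1 library was left out, the number of weaker pairs in the loci and the share over all pairs moved in the same direction. Over all pairs TMM called 0.322% stronger, against 0.339%. The 14 changed boundary regions (12.4% of all regions) became 9 with 500 kb on each side (7.71%) and 29 with no fold-change threshold (29.5%), and were unchanged or fewer over leave-outs. The 49 changed compartment bins became 28 of 34 in 250 kb bins, where 71.1% of all bins changed, and 25 to 65 over leave-outs. The 5 bins lower in interactivity became 9 with TMM factors (20.7% of all bins lower) and 18 of 26 with no filter on single interactions (23.8%), and were unchanged or fewer over leave-outs. With the replicate number as a block, the counts were 63 weaker pairs (0.264% of all pairs), 13 boundary regions (11.7% of all regions), 51 compartment bins (30.9%) and 4 interactivity bins (16.5%). With the 33 h numbers crossed in the block (also added then) they were 107 (0.431%), 14 (12.6%), 54 (33.7%) and 6 (21.4%). No end-to-end call changed. The causes of these differences were not tested. With 38 to 149 read pairs between the ends per library and 2 libraries per group, the intervals of all 3 end-to-end changes included 0.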
